A study of Rattus norvegicus with 4 samples.

Results

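The Wnt ligands, their Frizzled and Lrp receptors, their secreted inhibitors and the target gene Axin2 were followed across cell classes of rat peripheral nerve and ganglion by single-cell RNA sequencing. The members were the genes whose symbols match the Wnt, Fzd, Sfrp and Dkk families, together with Wif1, Frzb, Lrp5, Lrp6 and Axin2, and they numbered 41 of 25399 genes in the matrix. They comprised 19 ligands, 11 receptors and co-receptors, 10 inhibitors and 1 target. Of their 401619 UMIs (unique molecular identifiers, 1 for each captured transcript), 349032 belonged to the inhibitors, against 20990 for the ligands and 29296 for the receptors. In these cells Sfrp1 and Sfrp5 were the main inhibitors of glia. Sfrp1 was abundant in fibroblasts as well, with 82.1% and 83.1% of their Sfrp and Frzb UMIs in libraries 3 and 4. Sfrp2 and Dkk2 were found mostly in fibroblasts, and so was Sfrp4 in 3 of 4 libraries. Wnt6 was the leading ligand of glia and perineurial cells, and Fzd4 and Fzd6 were highest in endothelium.

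Wnt proteins are lipid-modified secreted signals that bind Frizzled receptors. With the co-receptors Lrp5 or Lrp6 they stop the destruction of beta-catenin, which then acts with TCF and LEF factors on target genes such as Axin2, itself a brake on the pathway. Secreted Frizzled-related proteins (Sfrp family and Frzb) and Wif1 bind Wnt proteins outside the cell, and Dkk1, Dkk2 and Dkk4 act on the Lrp co-receptors. In peripheral nerve the pathway is known for its part in the Schwann cell lineage and in myelin gene expression.

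The cells came from Sprague Dawley rats whose sex is given as not determined, and the labels give 4 groups of 1 library each: sciatic nerve at postnatal day 1, sciatic nerve at 8 weeks, dorsal root ganglion at postnatal day 1 and dorsal root ganglion at 8 weeks. Libraries were made with the 10x 3′ v3 chemistry, which counts the ends of polyadenylated transcripts. The labels describe primary Schwann cells grown in medium with serum, without saying whether the sequenced cells had been in culture. The barcodes end in a number from 1 to 4 whose sample the labels leave unnamed. They are therefore referred to as libraries 1 to 4, and tissues and ages were not compared. With 1 library in each group there is no replicate and no test between groups, and all intervals below are exact 95% intervals for counting error only.

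The libraries held 74425958 to 97572003 UMIs, and 33175 of 41444 barcodes were kept, with median depths of 6617, 1645.5, 4639 and 7554.5 UMIs in libraries 1 to 4. Pairs of libraries shared 26 to 39 barcode sequences, of which 13 to 30 were kept in both. Cells were classed by the summed level of marker genes that contain no member, with a threshold on that score. A class defined in this way is a range of marker score and not a proven cell type. Glia-gated cells, which cover Schwann cells and satellite glia, made up 2.82%, 16.5%, 9.27% and 76.1% of kept cells in libraries 1 to 4. The series is described as one of Schwann cells, and in libraries 1, 2 and 3 most cells were gated to other classes. Fibroblast-gated cells numbered 6477, 398, 1395 and 1184, endothelial-gated cells 118, 505, 189 and 58, and neuron-gated cells 0, 4850, 3174 and 2. Beside 277, 1392, 600 and 6432 glia-gated cells, 53, 338, 208 and 635 cells on either side of the glial threshold of 0.25 lay within 0.05 of it. Glia-gated cells of library 1 had a median fibroblast score of 0.145, and those of libraries 2 and 3 median neuron scores of 0.154 and 0.147. In libraries 3 and 4 they had median erythroid scores of 0.211 and 0.110. The part of such RNA from other cells in the levels below was not tested.

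Promoter sequences were looked up because Axin2 is the textbook readout of the pathway and because Wnt6, Wnt10a and Sfrp5 shared cell classes. The 250 bases before the annotated start, from RefSeq on build GRCr8, were searched on both strands for CTTTGAA and CTTTGAT, 2 forms of the TCF/LEF core, which are shown in capitals. The table held 28 of the 41 members, and 3 of these promoters had a match, those of Axin2, Dkk1 and Wnt8a, while 2537 of 33469 promoters of all genes did (7.58%). Axin2 (chr10:94398535-94398784, plus strand) had 2 matches, beginning 232 and 132 bases before the start. The windows of Wnt6 (chr9:83778302-83778551, plus strand), Wnt10a (chr9:83798344-83798593, plus strand) and Sfrp5 (chr1:250960513-250960762, minus strand) had none, which says only that these letters are not in these windows. The sequences are given 5′ to 3′ on the strand of the gene.
Axin2: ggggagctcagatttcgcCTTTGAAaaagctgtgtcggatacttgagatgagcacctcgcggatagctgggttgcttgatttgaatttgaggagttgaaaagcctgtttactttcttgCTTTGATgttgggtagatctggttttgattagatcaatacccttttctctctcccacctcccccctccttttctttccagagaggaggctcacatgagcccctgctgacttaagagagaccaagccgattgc
Wnt6: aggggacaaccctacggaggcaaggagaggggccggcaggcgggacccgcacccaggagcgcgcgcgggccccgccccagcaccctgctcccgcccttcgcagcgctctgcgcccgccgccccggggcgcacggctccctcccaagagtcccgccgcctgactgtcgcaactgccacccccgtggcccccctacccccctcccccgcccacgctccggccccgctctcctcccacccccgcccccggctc
Wnt10a: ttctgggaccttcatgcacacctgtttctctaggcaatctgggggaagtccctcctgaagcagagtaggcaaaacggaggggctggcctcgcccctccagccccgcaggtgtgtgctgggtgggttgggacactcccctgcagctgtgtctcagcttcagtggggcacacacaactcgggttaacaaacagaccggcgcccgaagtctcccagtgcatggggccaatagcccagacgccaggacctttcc
Sfrp5: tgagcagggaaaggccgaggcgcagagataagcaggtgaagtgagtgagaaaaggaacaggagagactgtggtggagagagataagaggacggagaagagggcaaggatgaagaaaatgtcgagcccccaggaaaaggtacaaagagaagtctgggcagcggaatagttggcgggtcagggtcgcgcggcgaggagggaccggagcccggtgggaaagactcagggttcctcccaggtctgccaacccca

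Levels are given as CPM, the UMIs of a gene per 1000000 UMIs of its class and library, summed over cells. Since 1 UMI stands for 1 captured 3′ end, CPM are not divided by transcript length, and levels of different genes still depend on how well each end is captured. Of the members, 22 reached 20 CPM in a class of at least 50 cells in at least 1 library, and the heat map of log-transformed levels shows them by class and library.

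**Figure D1:**
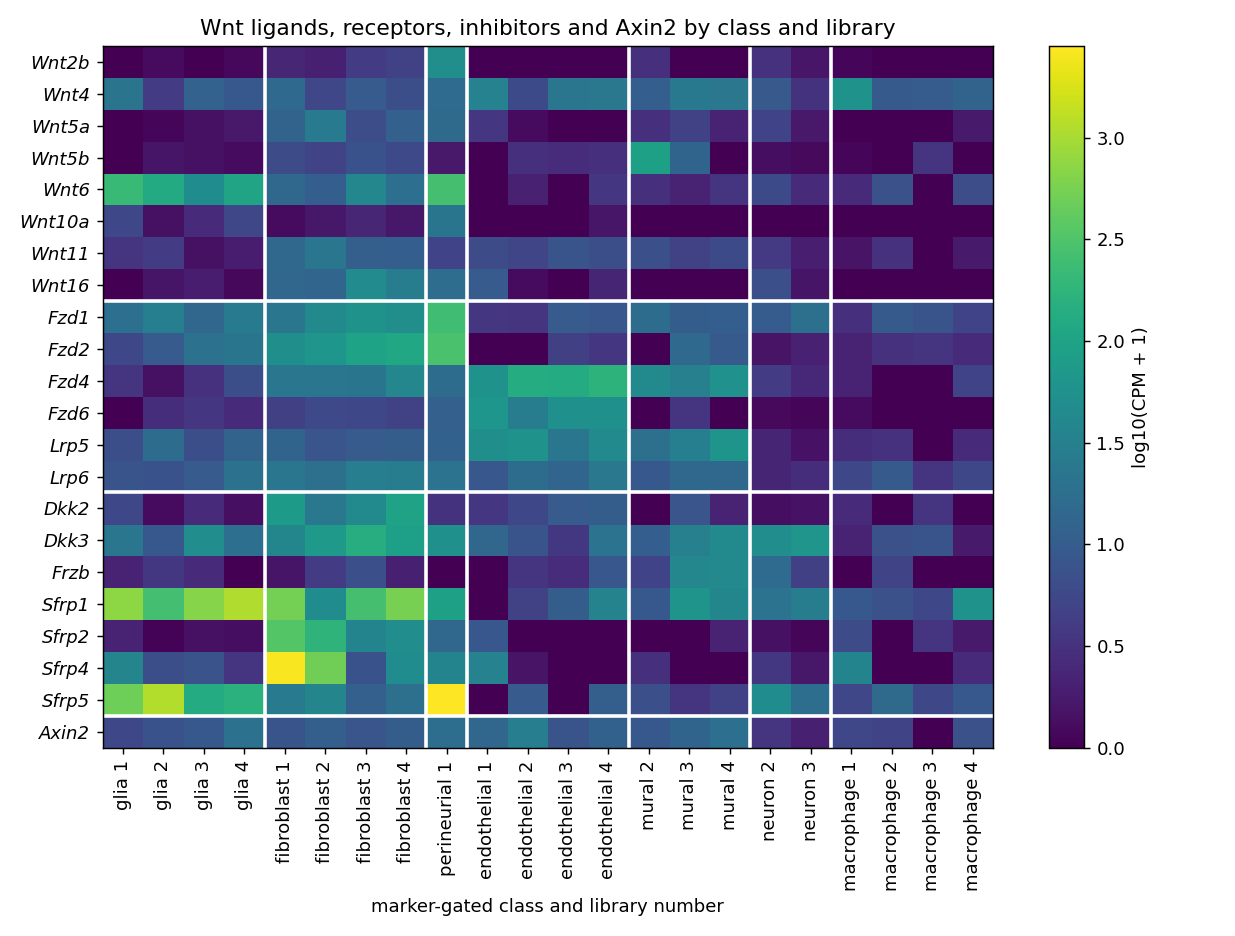
Heat map of log10(CPM + 1) for the 22 members that reached 20 CPM in a class, with classes of at least 50 cells and their library numbers on the x axis and genes ordered as ligands, receptors, inhibitors and Axin2. The brightest cells are Sfrp1 and Sfrp5 in glia, Sfrp4 in fibroblasts of library 1 and Sfrp5 in perineurial cells of library 1.

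Wnt6 was the leading ligand of glia. Wnt6 (ENSRNOG00000017409), a ligand of epithelia and of neural crest induction, stood at 211 CPM in glia-gated cells of library 1, 126 in library 2, 47.3 in library 3 and 101 in library 4. It supplied 88.1%, 93.7%, 75.2% and 87.4% of all Wnt ligand UMIs in these cells. Fibroblast-gated cells held 13.5, 9.64, 38.9 and 16.9 CPM of Wnt6 in the same libraries. The 4 glial values were all above the 4 fibroblast values, although within library 3 they were close, with a ratio of 1.22 and an interval of 0.976 to 1.504 for glia over fibroblasts. With the gate of 4 markers, Wnt6 in library 1 fibroblasts was 22.9 CPM. In libraries 1, 2 and 4 the glial level was 15.6-fold (13.3 to 18.4), 13.1-fold (9.04 to 19.8) and 5.97-fold (5.29 to 6.76) higher.

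Within glia, Wnt6 was lower in the cells with the most myelin transcripts. The myelin-high cells of libraries 2, 3 and 4 held 11.1, 12.9 and 48.9 CPM, and the myelin-low cells without Fabp7 148, 63.0 and 109 CPM. In library 1 the values were 146 and 246 CPM, so the direction was the same in all 4 libraries. Dividing glia of library 4, with at least 3 cell-cycle markers, had 118 CPM, close to the 109 CPM of its myelin-low cells.

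Perineurial cells form the sheath around nerve fascicles, and library 1 was the only one with more than 9 perineurial-gated cells. Its 328 cells held 270.4 CPM of Wnt6 (251 to 291), the highest level of any Wnt ligand in any class of at least 50 cells. Wnt10a, the neighbour of Wnt6 with no protein-coding gene between them in GRCr8, was at 21.2 CPM there (16.1 to 27.4) and at 4.37 CPM in glia-gated cells of library 4, where glia were the highest class. Elsewhere Wnt10a was at most 4.56 CPM. Wnt2b, a ligand close to Wnt2 in sequence, was at 49.0 CPM in the same perineurial-gated cells and at most 3.74 CPM in the other classes of at least 50 cells. These cells had a median fibroblast score of 0.344 beside a perineurial score of 0.309, and 214 cells of that library lay near the perineurial threshold.

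Fibroblasts carried a mixture of ligands with no single leader. The ligand with most UMIs was Wnt4 in library 1 (16.3% of Wnt UMIs), Wnt5a in library 2 (28.0%) and Wnt16 in libraries 3 and 4 (36.0% and 31.0%). Wnt4 was at 13.9, 4.47, 8.90 and 5.83 CPM in fibroblasts and at 20.5, 3.03, 11.1 and 7.85 CPM in glia of libraries 1 to 4. Wnt16, a ligand known from bone and joint tissue, was at 12.9, 12.4, 45.6 and 26.9 CPM in fibroblast-gated cells of libraries 1 to 4. Glia-gated cells held between 0 and 0.823 CPM of it, so the groups were far apart in every library. Wnt11, which acts mainly without beta-catenin, was at 13.7, 21.3, 10.2 and 9.64 CPM in fibroblasts and was highest in that class in all 4 libraries. Wnt5a, the best-known ligand of the beta-catenin-independent branch, was at 11.7, 25.5, 5.56 and 10.4 CPM. It stood at 14.6 CPM in perineurial-gated cells and below 4 CPM in the remaining classes of at least 50 cells. The perineurial level of Wnt5a was 22.9 CPM with mitochondrial UMIs limited to 10%, 27.7 CPM with a score of at least 0.35 and 9.17 CPM, from 3 UMIs, after thinning. Library 2 fibroblasts were the highest for both Wnt11 and Wnt5a, and library 3 fibroblasts were the highest for Wnt16.

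Fibroblast subsets, each cut by at least 2 of its subset markers, differed in these ligands. Cells that met the rule of more than 1 subset are not in the subset values given below. They numbered 2732 of the 6477 fibroblast-gated cells in library 1, and 130, 11 and 49 in libraries 2, 3 and 4. In library 1 the Myoc-marked cells had 23.1 CPM of Wnt16 (19.7 to 27.0), the Pi16-marked cells 1.73 (0.989 to 2.81) and the Ucma-marked cells 0.626 (0.230 to 1.36). Cells with at least 2 of the endoneurial markers Sox9, Osr2, Etv1 and Cdkn2a had 77.4 CPM of Wnt16 in library 3 and 44.7 in library 4. Pi16-marked cells of these libraries had 16.8 and 6.42. Wnt11 ran the other way, at 36.0 CPM in Pi16-marked cells and 3.92 in Myoc-marked cells of library 1, and at 16.9 in Pi16-marked against 5.34 in endoneurial-marked cells of library 4. Pi16-marked fibroblasts thus had less Wnt16 and more Wnt11 than Myoc-marked cells in library 1 and endoneurial-marked cells in library 4.

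Wnt4 and Wnt5b were the ligands that reached 50 CPM outside glia, perineurial cells and fibroblasts, in classes of at least 50 cells. Wnt4, a ligand of kidney and gonad development, was at 57.2 CPM in macrophage-gated cells of library 1 (52.0 to 62.8) and at 8.36, 9.09 and 11.7 CPM in those of libraries 2, 3 and 4, which had 131, 97 and 93 cells. It was also the most abundant Wnt ligand of endothelial-gated cells in every library, at 33.0, 4.87, 21.8 and 23.4 CPM. Its highest class was mural in library 3 and endothelial in library 4, and it could not be ranked in libraries 1 and 2. Wnt5b, a close relative of Wnt5a, was at 90.4 CPM in mural-gated cells of library 2 (66.2 to 121), the class of pericytes and vascular smooth muscle. In library 3 it was at 11.9 CPM there, and in library 4 no UMI was found, which allows up to 3.69 CPM by a limit of 3 UMIs. The UMIs came mainly from cells with smooth muscle genes, at 101 CPM in library 2 and 23.7 CPM in library 3, against 24.9 and 5.24 CPM in cells with pericyte genes.

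The other 11 ligands stayed below 6.4 CPM in every class of at least 20 cells. Wnt2, Wnt10b and Wnt1 were highest in fibroblast-gated cells in each library where they could be ranked, with Wnt2 at 6.37, 5.85, 2.89 and 6.20 CPM and 362, 17, 26 and 101 UMIs. Wnt10b and Wnt1 are neighbours in GRCr8 with no protein-coding gene between them. Wnt3 and Wnt9b, another neighbouring pair, were highest in neurons, with Wnt3 at 1.34 and 0.686 CPM and Wnt9b at 0.584 and 0.905 CPM in libraries 2 and 3. Wnt7a was at 1.81 CPM in neurons of library 3. Wnt3a, Wnt7b, Wnt8a, Wnt8b and Wnt9a had 2 to 23 UMIs each in all kept cells and could not be ranked in any library.

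Fzd1 and Fzd2, a closely related pair of receptors, were both highest in perineurial-gated cells of library 1, at 244 CPM (226 to 264) and 288 CPM (268 to 309). Fibroblast-gated cells came next, with Fzd2 at 51.7, 63.0, 98.7 and 116 CPM and Fzd1 at 21.4, 42.7, 57.9 and 50.2 CPM in libraries 1 to 4. Glia held 4.56, 8.93, 18.9 and 21.2 CPM of Fzd2 and 17.1, 29.7, 12.8 and 24.5 CPM of Fzd1. All 4 fibroblast values of Fzd2 were above all 4 glial values, whereas for Fzd1 the ranges overlapped. With mitochondrial UMIs limited to 10%, glia of library 2 were at 18.2 CPM of Fzd1, 5.07 CPM of Fzd2 and 8.11 CPM of Lrp5. The fibroblast level of Fzd2 was 11.3-fold (4.42 to 41.6), 7.06-fold (5.54 to 9.03), 5.21-fold (3.88 to 7.17) and 5.48-fold (5.09 to 5.91) that of glia. Fzd1 passed 2-fold in libraries 3 and 4, at 4.54-fold and 2.04-fold.

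**Figure D2:**
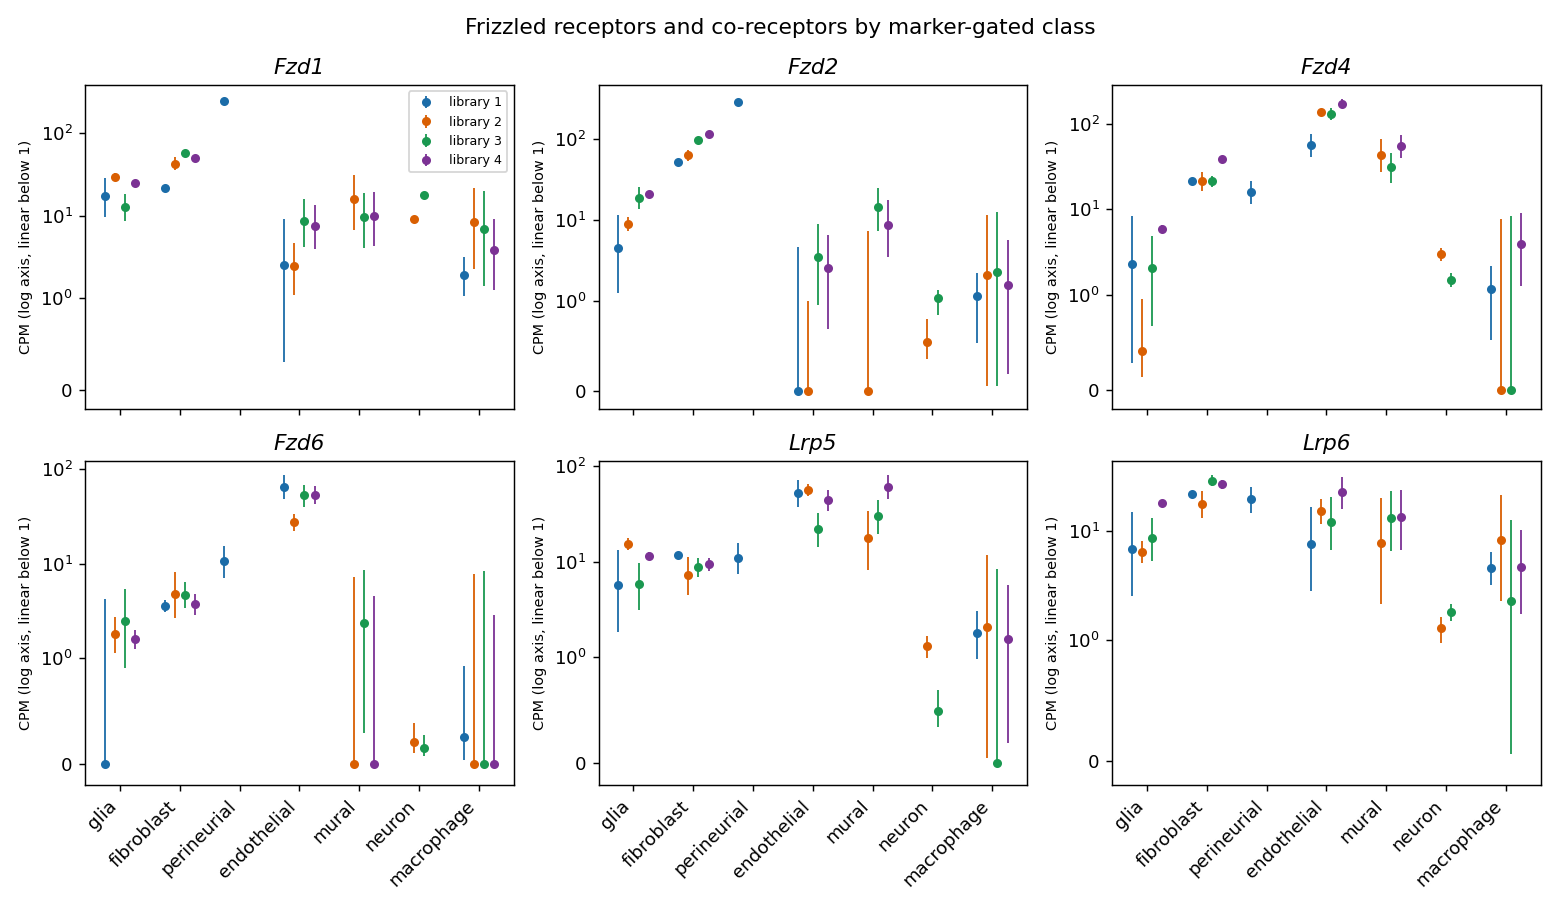
Level (CPM on a log axis, linear below 1) of 4 Frizzled receptors and of Lrp5 and Lrp6 in marker-gated classes of at least 50 cells, with 1 point per library and bars for exact 95% counting intervals. Fzd4 and Fzd6 are highest in endothelial cells in all 4 libraries, while Fzd1 and Fzd2 peak in the perineurial cells of library 1.

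Fzd4, the receptor for Norrin in vessels as well as for Wnt ligands, was at 55.9, 135, 129.7 and 169.8 CPM in endothelial-gated cells. Mural-gated cells of libraries 2, 3 and 4 held 43.2, 31.0 and 54.1 CPM, and fibroblast-gated cells 21.6, 21.3, 21.0 and 38.6 CPM. Endothelium was thus above both classes in each library. Thinning left 2 UMIs of Fzd4 in mural cells of library 4 (20.6 CPM) and 4 in endothelium of library 1 (33.9 CPM). Fzd6, which works in planar cell polarity, was at 64.8, 27.3, 52.2 and 53.2 CPM in endothelium, and after thinning at 42.4 CPM in library 1 and 105 CPM in library 4, from 5 and 6 UMIs. Outside endothelium and the perineurial-gated cells (10.6 CPM), Fzd6 was below 5 CPM in every class of at least 50 cells.

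Lrp5, a co-receptor with known roles in bone mass and retinal vessels, was at 52.1, 56.0, 21.8 and 43.7 CPM in endothelial-gated cells. In mural-gated cells it was at 17.7, 29.8 and 60.3 CPM in libraries 2, 3 and 4. Endothelium was the higher of these classes in library 2, and the intervals of both classes overlapped in libraries 3 and 4. In library 3, mural cells were at 56.2 CPM after thinning, and endothelium at 14.2 CPM when each cell counted equally. Lrp6, the more widely used co-receptor, was highest in fibroblasts in all 4 libraries at 21.9, 17.9, 29.3 and 27.1 CPM. Its glial levels were 6.84, 6.47, 8.64 and 18.3 CPM, and its endothelial levels 7.62, 15.4, 12.2 and 22.8 CPM, so Lrp6 varied less between classes than Fzd4 did. Neurons were low in both co-receptors, at 1.29 and 0.496 CPM of Lrp5 and 1.27 and 1.79 CPM of Lrp6 in libraries 2 and 3.

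The remaining 5 receptors were below 15 CPM. Fzd3, a planar polarity receptor used in axon guidance, was the 1 Frizzled highest in glia, at 10.3, 13.2 and 14.2 CPM in libraries 2, 3 and 4, and at 6.84 CPM from 6 UMIs in library 1. Neurons of libraries 2 and 3 held 3.19 and 4.19 CPM of Fzd3. Fzd7 reached 6.20 CPM in fibroblasts of library 4. Fzd9 had 132 of its UMIs in fibroblasts of library 1 (2.32 CPM) and 96 in neurons of library 2 (2.003 CPM). Its highest level in a class of at least 50 cells was 6.09 CPM in endothelium of library 3, from 7 UMIs. Fibroblasts of that library were at 0.445 CPM of Fzd9. Fzd5 had 40 UMIs in all kept cells, and no UMI of Fzd8 was found.

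Secreted Frizzled-related proteins were the most abundant members. Sfrp1 (ENSRNOG00000017783) was at 732, 263, 672 and 1111 CPM in glia-gated cells of libraries 1 to 4 and was highest in glia in every library. Fibroblast-gated cells held 529, 46.1, 267 and 557 CPM. Library 2 was the lowest for both classes and library 4 the highest. Glia were above fibroblasts by 1.38-fold (1.28 to 1.496), 5.69-fold (4.79 to 6.82), 2.51-fold (2.36 to 2.68) and 1.99-fold (1.95 to 2.04), so libraries 2 and 3 passed 2-fold. A UMI of Sfrp1 was seen in 71.8%, 68.7%, 87.5% and 98.1% of glia-gated cells. In cells thinned to 1000 UMIs these shares were 48.7%, 20.3%, 46.2% and 64.8%, after 4, 24, 7 and 105 shallower cells were left out. Macrophage-gated cells, a class not known for Sfrp1, had a UMI in 2.44%, 2.29%, 2.06% and 21.5% of cells and held 4.55 to 56.8 CPM. Their median depths were 3769, 3187, 3729 and 13750 UMIs, and those of glia 2805, 7558.5, 3718.5 and 7231 UMIs. With mitochondrial UMIs limited to 10%, glia of library 2 were at 174 CPM of Sfrp1.

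**Figure D3:**
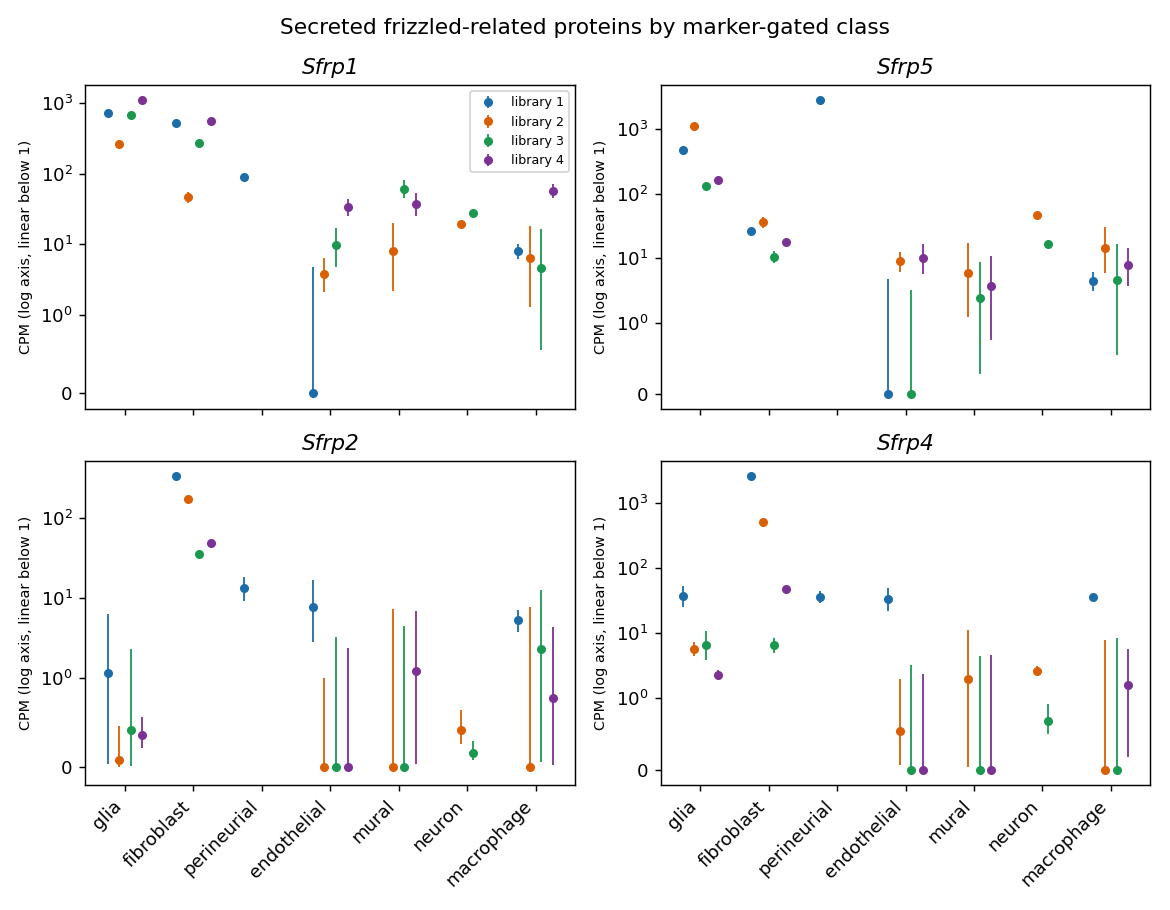
Level (CPM on a log axis, linear below 1) of 4 Sfrp genes in marker-gated classes of at least 50 cells, with 1 point per library and bars for exact 95% counting intervals. Sfrp1 and Sfrp5 are high in glia, Sfrp2 is high in fibroblasts alone, and Sfrp4 spans 6.45 to 2582 CPM between the fibroblasts of the 4 libraries.

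Sfrp5 (ENSRNOG00000014940) was the most unevenly spread of the glial inhibitors. It was at 485, 1124, 132 and 161 CPM in glia and at 26.5, 36.1, 10.5 and 17.9 CPM in fibroblasts, 9.004-fold to 31.1-fold apart within a library. The highest level was in the 328 perineurial-gated cells of library 1, at 2819.9 CPM (2757 to 2884), and 96.6% of these cells had a UMI, beside 1.70% of macrophage-gated cells of that library, at median depths of 7458.5 and 3769 UMIs. Those cells held 79.7% of the Sfrp5 UMIs of all gated cells in that library. Sfrp5 was sensitive to the gate in library 1 fibroblasts, which were at 120.1 CPM with a gate of 4 markers and 73.3 CPM with a score of at least 0.35. Library 2 fibroblasts were at 64.4 and 58.7 CPM under the same settings. The glial level in library 3 was 67.6 CPM with the latter gate, and in library 2 it was 699 CPM with mitochondrial UMIs limited to 10%. Glia stayed above fibroblasts under these settings.

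Neuron-gated cells of libraries 2 and 3 had 47.2 and 16.4 CPM of Sfrp5. In library 2 the neuron-gated cells under 10000 UMIs held 113 CPM and the deep cells with Scn10a 39.1 CPM, and in library 3 the values were 31.7 and 15.2 CPM. The shallow cells were the higher ones in both libraries. They numbered 4212 of 4850 and 1635 of 3174 neuron-gated cells, and neuron-gated cells of library 2 had a median glia score of 0.0436. The part of glial RNA in this signal was not tested.

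Sfrp1 and Sfrp5 differed between glial subsets. Myelin-low glia with the Fabp7 gene, a marker of satellite glia, were present mainly in libraries 2 and 3, with 891 and 67 cells. They held 1255 CPM of Sfrp5 in library 2 and 754 CPM in library 3. Myelin-high cells of those libraries held 542 and 15.7 CPM, and other myelin-low cells 477 and 130.3 CPM. A single UMI of Fabp7 placed a myelin-low cell in the Fabp7 subset, whose median depths were 9570 and 2916 UMIs. Those of the myelin-high cells were 3253 and 5068 UMIs, and those of the other myelin-low cells 3446 and 3155 UMIs. In library 4 myelin-high cells had 65.2 CPM and myelin-low cells 181 CPM, and in library 1 they had 404 and 418 CPM with overlapping intervals. For Sfrp1 the myelin-high cells were the lowest subset in each library, at 598, 30.1, 489 and 921 CPM. The corresponding myelin-low cells without Fabp7 held 849.7, 216, 857 and 1142 CPM.

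**Figure D4:**
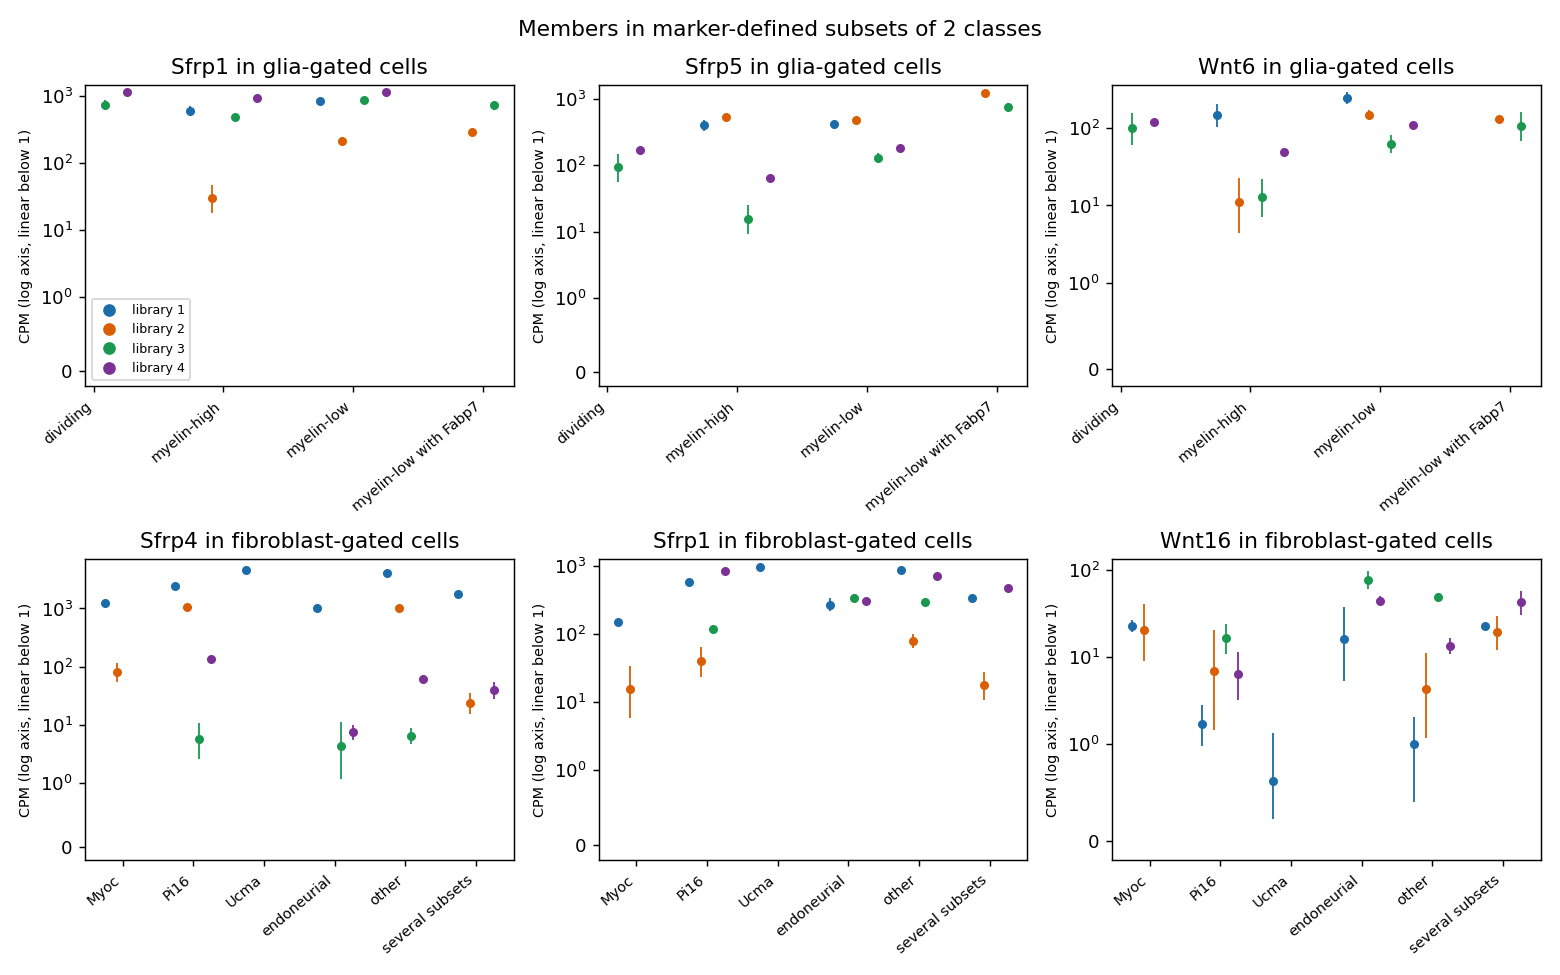
Level (CPM on a log axis, linear below 1) of Sfrp1, Sfrp5 and Wnt6 in glial subsets (upper row) and of Sfrp4, Sfrp1 and Wnt16 in fibroblast subsets (lower row), with 1 point per library for subsets of at least 20 cells and bars for exact 95% counting intervals. Sfrp5 peaks in the Fabp7 subset, Wnt6 is lowest in myelin-high glia, and Wnt16 is lowest in the Ucma subset of library 1.

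Sfrp2 belonged to fibroblasts in every library, and Sfrp4 in all but library 3. Sfrp2 was at 332, 173, 35.4 and 47.8 CPM in fibroblasts of libraries 1 to 4 and at no more than 1.14 CPM in glia, and fibroblasts held 95.99% to 99.54% of its gated UMIs in each library. Glia had 1 UMI of Sfrp2 in each of libraries 1, 2 and 3, which gave ratios, as counted and without the floor of 3 UMIs used for the calls, of 291 (52.3 to 11507), 2114 (378 to 83651) and 86.0 (15.3 to 3407). With 19 glial UMIs in library 4, the ratio was 133 (84.5 to 222). The intervals are wide, and their lower bounds all lie above 15-fold.

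Sfrp4 (ENSRNOG00000054957), an inhibitor whose loss causes a skeletal disease, varied more between the fibroblasts of the 4 libraries than any other member with at least 20 UMIs in each. Fibroblasts held 2582 CPM in library 1, 505 in library 2, 6.45 in library 3 and 46.8 in library 4. Against glia they were 70.7-fold (50.1 to 103), 89.3-fold (70.1 to 115) and 20.6-fold (17.0 to 25.2) higher in libraries 1, 2 and 4. In library 3 both classes were at about the same low level, with a ratio of 1.02 (0.547 to 1.799). The other classes of library 1 with at least 50 cells were between 33.0 and 36.5 CPM, a like low level in glia, perineurial cells, macrophages and endothelium. With mitochondrial UMIs limited to 10%, glia of library 2 were at 18.2 CPM of Sfrp4. When each cell counted equally, the fibroblast level in library 1 was 1819 CPM.

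Subsets of library 1 fibroblasts differed in Sfrp4 as well. The 2732 cells of this library that met the rule of more than 1 subset are not in these values, and unmarked cells met none. Ucma-marked cells held 4642 CPM, unmarked cells 4028, Pi16-marked cells 2451 and Myoc-marked cells 1243. Sfrp1 and Sfrp2 showed the same order between Ucma-marked, Pi16-marked and Myoc-marked cells, at 965, 576 and 152 CPM for Sfrp1 and 663, 366 and 97.8 CPM for Sfrp2. Median depths ran in that order too, at 12826, 9046 and 5363 UMIs, and unmarked cells had 8681.5 UMIs. The part of depth in these differences was not tested. The Myoc-marked subset was also low in Sfrp1 in library 2, at 15.6 CPM against 79.4 CPM in unmarked fibroblasts. The 35 endoneurial-marked cells of library 1 stood apart from the other subsets, with 669 CPM of Sfrp5, 203 CPM of Wnt6 and 180.3 CPM of Fzd2, the genes that led in perineurial-gated cells of that library.

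Frzb, the Frizzled-related protein named for its action in limb skeleton, was a mural gene in libraries 3 and 4, at 38.2 (26.1 to 53.9) and 40.6 (27.9 to 57.0) CPM. Cells with pericyte genes held 50.7 and 40.04 CPM there, and the 43 cells with smooth muscle genes in library 3 held 11.9 CPM from 3 UMIs. In library 2, where the cells with smooth muscle genes were 85 of 138 mural cells, the mural level was 3.93 CPM from 2 UMIs, and neurons led with 15.1 CPM (14.0 to 16.2). Frzb in mural cells of library 4 was 72.2 CPM after thinning.

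Dkk2, an antagonist at the Lrp co-receptors, was at 74.2, 23.4, 43.5 and 95.6 CPM in fibroblasts and highest there in every library. Endothelial levels were 2.54 to 9.503 CPM, and glial levels 0.246 to 4.56 CPM. Pi16-marked fibroblasts of library 1 had 179 CPM and Myoc-marked cells 16.0. Dkk3, a family member that does not bind the Lrp co-receptors, was found in several classes. Fibroblasts held 37.8, 69.5, 138 and 86.9 CPM, and neurons of libraries 2 and 3 held 47.4 and 62.2 CPM. Perineurial-gated cells of library 1 held 52.6 CPM, above the fibroblasts of that library, and mural-gated cells of library 4 held 44.3 CPM. Glia of library 3 held 48.6 CPM, and the myelin-high glia of libraries 3 and 4 held 54.4 and 53.1 CPM. Counting each cell equally, neurons of library 2 were at 31.3 CPM. Neurons supplied 87.0% and 75.3% of the gated Dkk3 UMIs of libraries 2 and 3. They also held 47934542 and 68529208 UMIs of all genes there, against 2905168 and 8987655 in fibroblasts. These shares therefore depend on the size of the class, and the fibroblast CPM were above the neuronal CPM in both libraries.

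Within neurons, Dkk3 followed Scn10a, the sodium channel of nociceptors. Deep neurons, those with at least 10000 UMIs, had 51.9 CPM with Scn10a (49.7 to 54.2) and 1.73 CPM without it (0.471 to 4.43) in library 2. In library 3 they had 67.1 CPM (65.0 to 69.2) and 18.6 CPM (15.5 to 22.1). The cells without Scn10a were few, at 61 and 190, beside 577 and 1349 with it, and they were shallower, with median depths of 38366 and 30803 UMIs against 71283 and 44259. Frzb showed the same direction in library 2, at 16.2 and 4.76 CPM, and not in library 3, at 3.26 and 5.27 CPM.

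The least abundant inhibitors were Wif1, Dkk1 and Dkk4. Wif1 was at 0.493, 0.344, 5.01 and 11.8 CPM in fibroblasts of libraries 1 to 4 and at 6.74 and 3.09 CPM in neurons of libraries 2 and 3. Dkk1, the classic antagonist at the Lrp co-receptors, had 142 UMIs in all kept cells, of which 82 were in glia of library 4 (1.55 CPM). Dkk4 had 64 UMIs and could not be ranked in any library.

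Axin2 was low and broad. Its highest levels were 28.9 CPM in endothelial-gated cells of library 2 (23.7 to 35.0), 18.4 CPM in glia of library 4 (17.3 to 19.6), 17.2 CPM in mural cells of library 4 and 16.4 CPM in perineurial-gated cells of library 1. The perineurial level was 10.5 CPM with mitochondrial UMIs limited to 10%, 9.37 CPM with the gate of 4 markers and 8.15 CPM with a score of at least 0.35. Glia of libraries 1, 2 and 3 held 4.56, 6.31 and 7.82 CPM, and fibroblasts 6.80, 9.98, 7.01 and 9.52 CPM. Axin2 in glia of library 4 was thus above that in glia of the other libraries, with 17.9 CPM in its dividing, 20.7 in its myelin-high and 18.1 in its myelin-low cells. Axin2 did not pass 2-fold between fibroblasts and glia in any library, and the glial level of library 4 was 1.94-fold that of fibroblasts (1.63 to 2.31). It was the promoter with 2 TCF/LEF core matches shown above.

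Members were next set beside all genes by the class in which each was highest. A gene was ranked in a library if its highest class had at least 20 UMIs, and 33 members and 13502 genes could be ranked in at least 1 library. Of these members, 10 were highest in fibroblasts in every library where they were ranked (Wnt1, Wnt2, Wnt10b, Wnt11, Fzd7, Fzd9, Lrp6, Dkk2, Sfrp2 and Sfrp4), beside 7.64% of all ranked genes. Wnt1 and Fzd9 were ranked in library 1 alone, and Wnt10b in 2 libraries. A member entered this count only through the class where it was highest, as did every other gene. Fzd9 had a higher level in endothelium of library 3, 6.09 CPM from 7 UMIs, where it could not be ranked. In the same way, 3 members were highest in glia (Fzd3, Dkk1 and Sfrp1, beside 9.34% of all genes). Another 3 were highest in neurons (Wnt3, Wnt7a and Wnt9b, beside 11.3%) and 2 in endothelium (Fzd4 and Fzd6, beside 6.41%). Dkk1 was ranked in library 4 alone, Wnt7a in library 3 alone, and Wnt3 and Wnt9b in libraries 2 and 3. The glial, neuronal and endothelial counts are near the shares of all genes, and the fibroblast count is above its share. The neuronal count fell to 1 with mitochondrial UMIs limited to 10% and to 1 with thinned cells. The remaining 15 members were highest in different classes in different libraries, among them Wnt6 and Sfrp5, which led in perineurial-gated cells of library 1 and in glia of libraries 2, 3 and 4.

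Fibroblast-gated and glia-gated cells of the same library were then compared directly, for genes with at least 20 UMIs in either class. A gene was called past 2-fold if its higher side had at least 20 UMIs, so Fzd3 in library 1 (6 UMIs in glia) and Fzd6 in library 2 (14 UMIs in fibroblasts) were compared but could not be called. In library 1, 10 of 22 members compared were higher in fibroblasts (13.0% of all genes) and 2 were lower (15.4%). In library 2, 10 of 20 were higher (14.9%) and 5 lower (14.1%). Library 3 had 17 of 26 higher (18.6%) and 3 lower (10.7%), and library 4 had 16 of 27 higher (17.0%) and 5 lower (15.6%). The median log2 ratios of fibroblast over glial CPM were 0.85, 1.44, 1.47 and 2.34 for the members and -0.41, 0.06, -0.04 and -0.06 for all genes. In each library, then, the share of members above 2-fold in fibroblasts was larger than that of all genes. Many of these members reached 20 UMIs in fibroblasts alone, such as Wnt2, Wnt2b and Wnt10b of library 3 with 26, 27 and 28. Members of this kind could be called only as higher, as could any other such gene. Class totals also differed, so 20 UMIs stood for different levels. Fibroblasts held 56803864, 2905168, 8987655 and 16289745 UMIs in libraries 1 to 4, and glia 876899, 12208146, 2430245 and 52881604. The shares are therefore no test of the members. The share below 2-fold was under that of all genes in library 1, above it in library 2 and near it in libraries 3 and 4. With cells thinned to 1000 UMIs, 5 of 16, 3 of 7, 8 of 11 and 8 of 17 members were higher in fibroblasts, beside 12.6%, 10.5%, 18.5% and 11.3% of all genes. At that depth 2, 3, 2 and 4 members were lower, beside 10.6%, 18.3%, 10.9% and 15.3% of all genes. Library 2 thus had 3 members called each way after thinning.

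**Figure D5:**
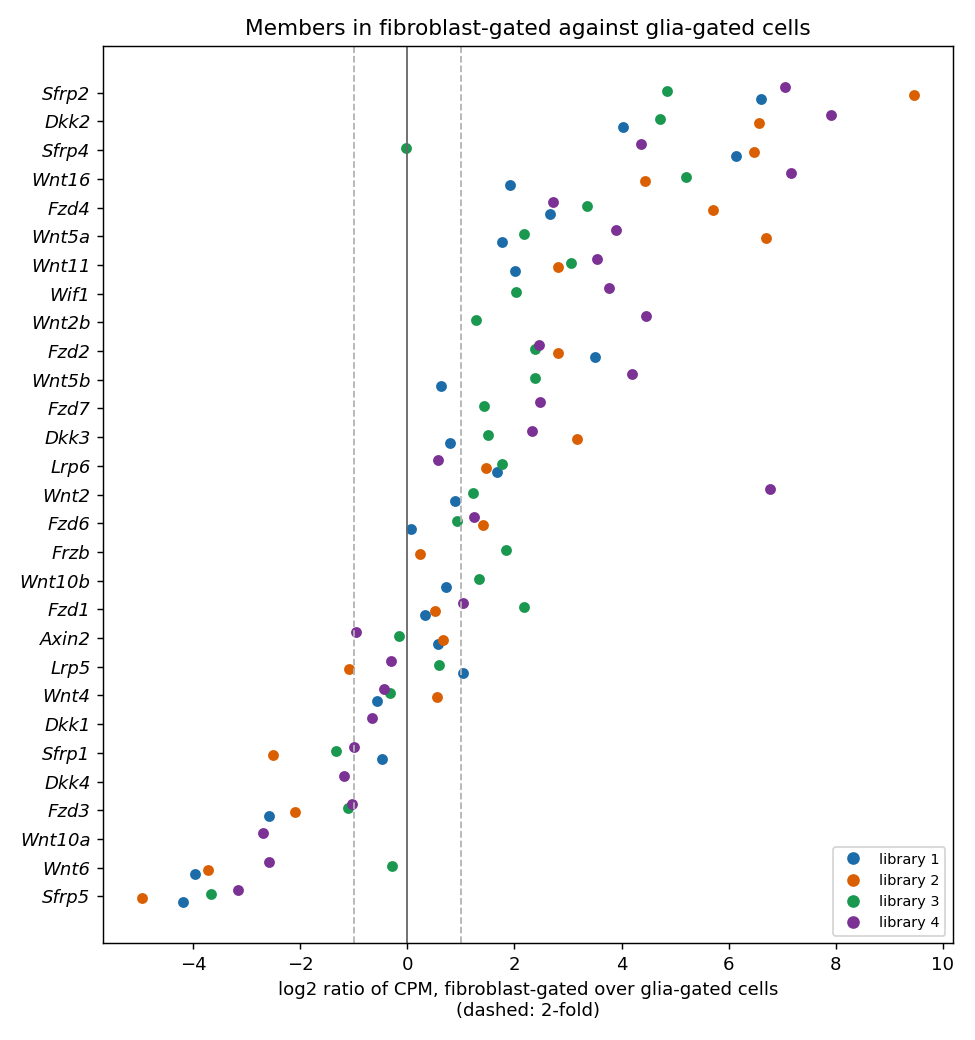
Log2 ratio of CPM in fibroblast-gated over glia-gated cells for every member that could be compared, 1 point per library, with dashed lines at 2-fold. A side with fewer than 3 UMIs was set to 3 UMIs, so such ratios are lower bounds in size. Sfrp2, Dkk2, Wnt16 and Fzd4 lie to the right of 2-fold wherever shown, and Sfrp5 lies to the left in all 4 libraries.

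By role, 3, 3, 7 and 6 ligands were higher in fibroblasts in libraries 1 to 4, of 8, 5, 9 and 9 compared, and 1, 1, 0 and 2 were lower. The lower ligands were Wnt6, and Wnt10a in library 4. Receptors higher in fibroblasts numbered 4, 3, 5 and 5 of 7, 7, 8 and 8, and inhibitors 3, 4, 5 and 5 of 6, 7, 8 and 9. Lower receptors numbered 0, 2, 1 and 1, and lower inhibitors 1, 2, 2 and 2. Of all genes, 13.0%, 14.9%, 18.6% and 17.0% were higher and 15.4%, 14.1%, 10.7% and 15.6% lower. Wnt5a, Wnt11, Wnt16, Fzd2, Fzd4, Dkk2 and Sfrp2 were higher in all 4 libraries, and Sfrp5 was lower in all 4. For genes without a glial UMI in library 1 the ratio is a bound. Set against 3 UMIs, Wnt5a was at least 3.42-fold and Wnt16 at least 3.77-fold higher, and the exact intervals of these ratios begin at 2.77-fold and 3.06-fold. Lrp5 was the member whose call turned between libraries, at 2.06-fold higher in fibroblasts of library 1 (0.878 to 6.36, from 5 glial UMIs) and 2.13-fold lower in library 2 (1.35 to 3.52).

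Of 71 other pathway genes listed by function, 69 were in the matrix. In libraries 1 to 4, 11, 14, 20 and 16 of them were higher in fibroblasts and 15, 9, 7 and 9 were lower, of 51, 51, 55 and 60 compared. Beside them, 13.0%, 14.9%, 18.6% and 17.0% of all genes were higher and 15.4%, 14.1%, 10.7% and 15.6% lower, so the lower counts of libraries 2, 3 and 4 were near those of all genes. Among other receptors and planar polarity genes, 7 of 12, 5 of 12, 8 of 13 and 7 of 18 were higher. Past 2-fold on the glial side were 1, 2, 2 and 4 genes of this list. Gpc3, a glypican that binds Wnt proteins, was at 976, 1089.8, 1294 and 1836 CPM in fibroblasts and 20.5, 2.87, 12.3 and 13.1 CPM in glia. Ror2, a receptor tyrosine kinase for Wnt5a, was at 8.24, 4.13, 10.1 and 20.7 CPM in fibroblasts, and glia had 0, 1, 0 and 24 UMIs of it. Celsr2, a planar polarity cadherin, ran the other way, at 67.3, 208, 95.9 and 76.7 CPM in glia and 1.81 to 5.16 CPM in fibroblasts. Its relative Celsr1 could be compared in library 4 alone, with 245 UMIs in glia and 3 in fibroblasts, a ratio of 25.2 (8.51 to 123).

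R-spondins amplify Wnt signals through the Lgr receptors. Rspo1 was at 23.0, 18.6, 2.89 and 7.67 CPM in fibroblasts, and glia had 1, 0, 0 and 3 UMIs of it. Of the R-spondin list, 1 of 4, 2 of 5, 3 of 5 and 3 of 5 genes were higher in fibroblasts, and 1, 2, 0 and 1 were lower. All genes had shares of 13.0%, 14.9%, 18.6% and 17.0% on the fibroblast side and 15.4%, 14.1%, 10.7% and 15.6% on the glial side. The list of other extracellular antagonists had 6 genes compared in each library. Past 2-fold, 2, 4, 3 and 3 of them were higher in fibroblasts, against 2, 1, 1 and 0 higher in glia. Library 1 was thus even, with 2 each way in this list. Cthrc1, listed there as a secreted protein that helps Wnt ligands bind Frizzled and Ror2, was at 309, 263, 274 and 351 CPM in fibroblasts and 7.98, 13.8, 63.0 and 54.5 CPM in glia. Sostdc1, an antagonist of Wnt and BMP signals, was at 637, 225, 192 and 146 CPM in glia and 6.60, 3.79, 30.6 and 110.4 CPM in fibroblasts, past 2-fold in libraries 1, 2 and 3. Sostdc1, and Wls below, were named after their values were seen.

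Of the destruction complex and Dishevelled genes, 0, 0, 1 and 0 of 12, 11, 12 and 12 were higher in fibroblasts and 3, 1, 1 and 1 were lower, beside 13.0%, 14.9%, 18.6% and 17.0% of all genes higher and 15.4%, 14.1%, 10.7% and 15.6% lower. Nuclear factors had 0, 2, 2 and 2 of 10, 10, 11 and 12 higher and 3, 3, 1 and 1 lower. Of the 3 Wnt secretion genes, Wls, the carrier of Wnt proteins to the cell surface, was at 45.9, 27.5, 57.1 and 91.6 CPM in fibroblasts and 19.4, 28.0, 7.41 and 14.1 CPM in glia, higher in fibroblasts in libraries 1, 3 and 4.

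The feedback targets other than Axin2 had calls in both directions in libraries 2, 3 and 4. Of these 11 genes, 0 of 6, 2 of 6, 3 of 8 and 1 of 8 compared were higher in fibroblasts and 5, 1, 2 and 4 were lower. Beside these small counts, 13.0%, 14.9%, 18.6% and 17.0% of all genes were higher and 15.4%, 14.1%, 10.7% and 15.6% lower. Nkd1, a feedback inhibitor at Dishevelled, was at 38.8, 3.44, 62.5 and 24.5 CPM in glia and 9.52, 6.20, 4.78 and 3.87 CPM in fibroblasts, past 2-fold in libraries 1, 3 and 4. Lgr5 was at 9.12, 13.6, 4.11 and 5.88 CPM in glia and 1.38 to 3.12 CPM in fibroblasts. Lef1, a TCF/LEF factor that is itself a target, was at 1.02, 4.47, 7.90 and 7.73 CPM in fibroblasts and 1.14, 0.0819, 0.823 and 0.681 CPM in glia. Tcf7 reached 2.53 CPM in glia of library 4 and Sp5 4.78 CPM in fibroblasts of library 3, while Notum and Rnf43 had at most 2 UMIs in either class of any library.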

How the data were processed

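Single cells of sciatic nerve and dorsal root ganglion were profiled in 4 libraries, 1 per group. The deposited matrix holds raw UMI counts per gene and barcode, written by Cell Ranger 3.1.0 per the file headers. The submitters' processing notes name CASAVA 1.8, Cell Ranger, Seurat and the build Rnor_6.0 without saying what each did, and the aligner is not given in the sources used here. Cells with at least 500 genes and at most 20% mitochondrial UMIs were kept. A cell joined a class when its marker score was at least 0.25 with at least 3 markers detected, and 92 of 98 markers were found. Perineurial cells were taken before fibroblasts. The 1412 cells past more than 1 gate were left out, no doublet caller was run, and 1466 cells passed no gate.

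Counts were summed per class and library and given as CPM with exact Poisson intervals, and shares of cells with exact Clopper-Pearson intervals, at 95% and for counting error only. Ratios used a floor of 3 UMIs a side. In library 1, 2497 genes were left out because that floor would have turned the direction or raised the higher side. Values in every library are given for members at 20 CPM or more in a class of at least 50 cells. Of each pathway list up to 4 genes are named, those with the largest median ratio among genes past 2-fold the same way wherever compared, and feedback targets by level. The members and lists were chosen with earlier results of these data known. The alternatives covered filters, gates, thresholds and thinning to 1000 UMIs. Scripts ran in Python 3.11.15 with numpy 2.4.6, scipy 1.17.1, pandas 2.3.3 and matplotlib 3.10.9, and were tested on simulated data.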

Additional observations from a re-analysis of the deposited data

How the results depend on the processing

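Of 252 recomputed counts, 223 stayed within 1.5 times the reported count and 29 did not. For the latter the cause was not tested, beyond stricter thresholds and thinning leaving fewer genes to call. Members higher in fibroblasts numbered 5, 3, 8 and 8 in libraries 1 to 4 with cells thinned to 1000 UMIs, 6 and 10 in libraries 1 and 3 at 4-fold, 4 and 8 in libraries 2 and 3 when a gene needed 100 UMIs, and 16 in library 2 when it needed 5. Members lower numbered 3 in library 2 with thinning and 3 with mitochondrial UMIs limited to 10%, and 1 and 3 in libraries 3 and 4 at 4-fold. Listed pathway genes higher numbered 6, 9 and 13 in libraries 1, 2 and 3 at 4-fold, 4 and 13 in libraries 2 and 3 with thinning, and 5 in library 2 at 100 UMIs. Listed genes lower in library 1 numbered 5 with thinning, 4 at 100 UMIs and 5 at 4-fold. They numbered 5 in library 2 with the mitochondrial limit and 5 at 4-fold, and in library 3 4 with thinning and 4 at 100 UMIs. With a gate of 4 markers 5 members were highest in glia, and in neurons the count was 1 with the mitochondrial limit and 1 with thinning. Each of the 22 members given by value was also followed at its highest level under 8 settings, and of these 176 values 134 stayed within the counting interval and 3 moved by over 1.5 times, all with thinning: Wnt5a in fibroblasts of library 2 to 38.5 CPM, Fzd6 in endothelium of library 1 to 42.4 CPM and Frzb in mural cells of library 4 to 72.2 CPM. Lower levels moved more often. Of all 221 levels of these members with at least 20 UMIs, 49 moved by over 1.5 times with thinning, 25 when each cell counted equally, 16 with the mitochondrial limit, 11 with a gate score of 0.35, 7 with 4 markers and 1 to 3 under each of the other 3 settings. A gate score of 0.35, leaving out the deepest 5% of cells and ranking only classes of 50 cells were chosen after seeing the data. No paired analysis was possible because each group has 1 library and the barcode suffixes carry no replicate number. Depth limits small classes: after thinning, 1 UMI was worth 17.5 CPM in endothelium of library 4.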
